A study of Mus musculus with 38 samples.

Results

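The 9 genes described here make, carry, destroy or sense retinoic acid. They were chosen by name: every row of the deposited RNA table whose symbol was Crabp1, Crabp2, Cyp26a1, Rarb, Rarg, Stra6, Aldh1a2, Aldh1a3 or Dhrs3, 9 of 25965 genes, each read in all 14 libraries. The cells were of the mouse embryonic stem cell line E14 (XY, 129/Ola), grown feeder-free on gelatin and always with leukaemia inhibitory factor (LIF, the L of each medium name). S/L was DMEM with 15% fetal bovine serum. The remaining media were serum-free N2B27 with kinase inhibitors. In MEKi/L this was 1 µM PD03259010 (spelled as in the labels), which blocks MEK, in GSK3i/L 3 µM CHIR99021, which blocks GSK3, and in 2i/L the pair of them. There were 3 libraries per medium after 8 days, and 2 more of GSK3i/L after 24 days. All cells were first plated in S/L and switched the next day.

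Retinol enters cells through the membrane receptor STRA6, is oxidised to retinal, and is turned into retinoic acid by the ALDH1A enzymes. DHRS3 reduces retinal back to retinol, the CRABP proteins carry retinoic acid inside the cell, and CYP26 enzymes degrade it. Retinoic acid binds RAR receptors, which sit on DNA with RXR partners and switch on genes such as Cyp26a1 and Rarb, and it drives embryonic stem cells to differentiate. The media differ in its precursor: serum carries retinol, while the B-27 supplement of the N2B27 media was, per the labels, the form without vitamin A. No library came from N2B27 with LIF and no inhibitor, so against S/L the inhibitor and the change of medium cannot be told apart. The labels speak of replicates and do not say that they came from separate cultures, so a p-value here weighs a difference only against the spread of these libraries, which may be technical.

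Cyp26a1 and Rarb are textbook direct targets of the receptors, and the sequence before their starts is shown for the receptor site they share. In the RefSeq promoter windows of GRCm38.p6 (250 bases before to 50 after a start), both held a DR5, a direct repeat of the receptor half-site with 5 bases between. The half-site searched was NGNTCA, with A or G at the first N and G or T at the other, on both strands. The 120 bases before each start follow, 5′ to 3′ on the strand of the gene, with the DR5 in capitals.
Cyp26a1: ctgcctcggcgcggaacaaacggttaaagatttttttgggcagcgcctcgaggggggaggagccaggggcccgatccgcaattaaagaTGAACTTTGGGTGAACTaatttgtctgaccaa
Rarb: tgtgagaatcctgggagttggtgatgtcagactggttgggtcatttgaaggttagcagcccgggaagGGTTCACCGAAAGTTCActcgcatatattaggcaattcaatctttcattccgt

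The Cyp26a1 stretch is chr19:37697688-37697807 on the plus strand, and its repeat reads in the opposite direction to the gene and ends 16 bases before the start. The Rarb stretch is chr14:16575477-16575596 on the minus strand, and its repeat reads with the gene and ends 37 bases before the start. Written in the same direction, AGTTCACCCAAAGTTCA of Cyp26a1 and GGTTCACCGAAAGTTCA of Rarb were identical at 15 of 17 positions. A DR5 was present in 32 of 32851 windows of all genes (0.097%), which belonged to 31 of 27025 genes (0.115%). The windows of Crabp1, Stra6, Dhrs3, Aldh1a2 and Rarg held no DR5 in these letters, and no window of a member held a DR1 or DR2 (0.222% and 0.268% of all windows). Crabp2 and Aldh1a3 were not searched. A match is a description of the letters and not evidence of binding.

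Depth ran from 10551735 to 15757820 reads in 8 libraries and was approximated at 8078833 to 18414108 in the remaining 6, the 8-day libraries of S/L and GSK3i/L, whose values the authors had matched to 1 shared distribution. Values are reads scaled to a common library total (RPM, on the scale of the authors' log2 values) and are not divided by transcript length, so levels are compared between conditions and not between genes. Pluripotent cell markers (Pou5f1, Sox2, Nanog and 7 others) summed to between 5528 and 7633 RPM in every library, all 10 above 0.5 RPM. Of the 9 members 8 passed the filter of 0.5 RPM in at least 3 libraries and were tested with limma, with Benjamini-Hochberg adjustment over the 14980 genes tested in each comparison. A call is an adjusted p under 0.05. Rarb did not pass and was not tested. Stra6 passed mainly through the GSK3i/L libraries at 8 days, and Cyp26a1 through the first S/L library and the 2 libraries at 24 days.

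In no serum-free medium were the called members all in 1 direction against S/L, and all genes tested also went both ways. Against S/L, the 3 serum-free media each gave their own mixture: MEKi/L had 4 members higher and 2 lower (26.1% and 14.7% of all genes tested were called higher and lower), GSK3i/L had 3 higher and 3 lower (16.8% and 14.4%), and 2i/L had 2 higher and 3 lower (39.1% and 24.4%). These comparisons share the S/L libraries. Rarg was lower in all of them, and no other member was called in the same direction in all of them. Between the inhibitors, 2i/L had 0 members higher and 2 lower against MEKi/L (6.81% and 6.11%; 2 and 5 at an unadjusted p under 0.05 in limma). Against GSK3i/L, 2i/L had 2 higher and 5 lower (19.8% and 8.02%) and MEKi/L had 3 higher and 2 lower (12.2% and 5.65%). From 8 to 24 days of GSK3i/L, 0 members were called higher and 1 lower (4.30% and 13.2%; 0 and 1 at an unadjusted p under 0.05). The median log2 fold change of the 8 members was 0.86, 0.13 and -0.49 in MEKi/L, GSK3i/L and 2i/L against S/L, beside 0.17, 0.06 and 0.28 over all genes tested.

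**Figure D1:**
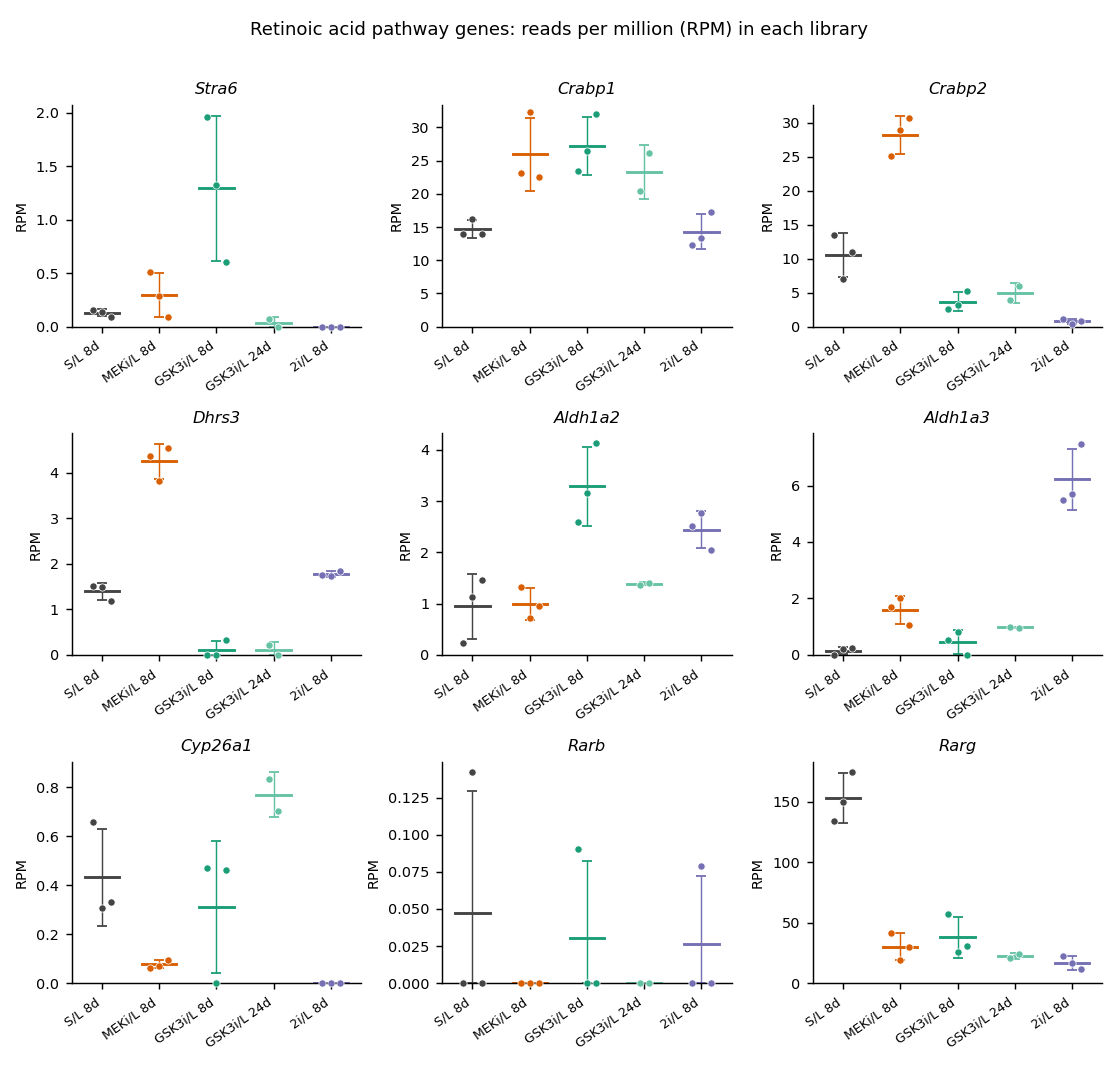
RPM (y axis, linear from 0) of the 9 genes in each library, by group. Points are libraries in replicate order, horizontal lines are group means and bars are SD, stopped at 0. Crabp2 stood highest in MEKi/L, Aldh1a3 in 2i/L, Rarg in S/L, and Stra6 in GSK3i/L at 8 days, while Rarb never passed 0.142 RPM.

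Stra6, the retinol receptor and channel (ENSMUSG00000032327, chr9:58063788-58153996, plus strand), had its highest RPM in GSK3i/L at 8 days, at 1.96, 1.32 and 0.603 RPM (32, 15 and 4 reads). The S/L libraries held 2, 2 and 1 reads, the MEKi/L libraries 8, 4 and 1, the 2i/L libraries 0, 0 and 0, and the GSK3i/L libraries at 24 days 1 and 0. In RPM, all 3 GSK3i/L libraries at 8 days lay above every other library. The narrowest gap was from GSK3i/L replicate 3 (0.603 RPM, 4 reads) to MEKi/L replicate 1 (0.508 RPM, 8 reads). Only the GSK3i/L column had been matched, so this gap crosses columns of unlike processing and does not hold in reads. Stra6 rose in GSK3i/L against S/L by 3.19 ± 0.64 on the log2 scale (SE; adjusted p = 0.0024). Since it passed the filter through that group, the fit with no filter on low values is given too: the adjusted p was 0.0013 there, 0.00023 for 2i/L against GSK3i/L and 0.0030 at 24 against 8 days. It was lower in 2i/L than in GSK3i/L (adjusted p = 0.00039), at least 5.8-fold when 2i/L is set to a floor of 3 reads per library. It was also lower at 24 than at 8 days of GSK3i/L (adjusted p = 0.0055), where 1 read in all remained. MEKi/L was lower than GSK3i/L by this fit (adjusted p = 0.023), but not without MEKi/L replicate 3 (0.11), GSK3i/L replicate 1 (0.089) or GSK3i/L replicate 2 (0.071), nor in a fit of these 2 groups only (0.094). 2i/L against MEKi/L was not called (adjusted p = 0.070) except without MEKi/L replicate 3 (0.024), with the replicate block (0.045) or with simpler variances (0.045). Stra6 overlaps Ccdc33 on the opposite strand, which was at most 0.176 RPM in any group mean.

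The rise of Stra6 in GSK3i/L at 8 days went with markers of another cell type. Of 8 fibroblast and mesenchyme markers, 6 of 7 tested rose there against S/L. Their summed level was 241, 164 and 101 RPM in replicates 1, 2 and 3, most of it from the collagens Col3a1 (mean 86.7 RPM) and Col1a1 (mean 56.7 RPM). It was 10.4 to 13.9 RPM in S/L, 4.08 to 7.12 in MEKi/L, 10.7 to 12.5 in 2i/L and 4.94 to 6.08 at 24 days. The 6 that rose were Col1a1, Col1a2, Col3a1, Lum, Postn and Prrx1. Lum and Prrx1 passed the filter only through the GSK3i/L libraries at 8 days, so their calls are not independent of it. Prrx1, a mesenchymal transcription factor, stood at 6.91 RPM in GSK3i/L at 8 days, Col1a2 at 10.4, Lum at 1.04 and Postn at 0.830 RPM. Prrx1, Lum and Postn had 0 reads in S/L, in MEKi/L and at 24 days. Thy1 was not called, and Dcn, at 0.047 RPM, was not tested. The library with the highest sum had the most Stra6 and the one with the lowest sum the least. The part of such cells in the Stra6 result was not tested. The Stra6 call against S/L held when any 1 library of GSK3i/L at 8 days or S/L was left out, GSK3i/L replicate 1 included. Every GSK3i/L library at 8 days had a mesenchyme marker sum above every S/L library, so this does not separate Stra6 from the markers. In bulk RNA, more cells of a type and more RNA per cell cannot be told apart.

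**Figure D2:**
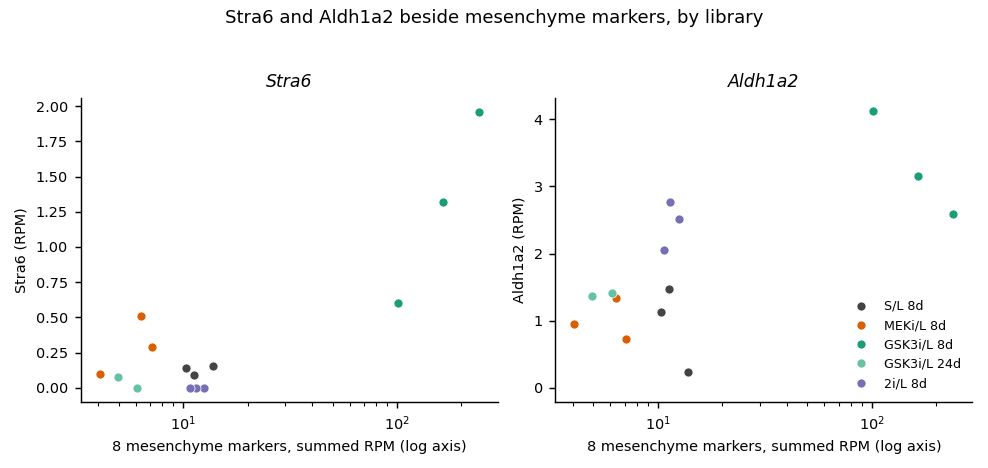
RPM of Stra6 (left) and Aldh1a2 (right) in each of the 14 libraries (y axes, linear) against the summed RPM of 8 fibroblast and mesenchyme markers (x axes, log scale), coloured by group. The 3 GSK3i/L libraries at 8 days stand alone at 101 to 241 RPM of markers; Aldh1a2 is also above 2 RPM in the 2i/L libraries, where the sum is 10.7 to 12.5 RPM.

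Crabp1, a cytoplasmic carrier of retinoic acid (ENSMUSG00000032291, chr9:54764748-54773110, plus strand), took 2 levels. It was 13.90, 16.2 and 13.95 RPM in S/L and 12.3, 13.4 and 17.3 RPM in 2i/L. It was 23.2, 32.3 and 22.5 RPM in MEKi/L, 23.4, 26.4 and 32.0 RPM in GSK3i/L, and 20.4 and 26.2 RPM at 24 days. The lowest library with 1 inhibitor thus stood above the highest in S/L or 2i/L. Crabp1 rose by 0.81 ± 0.20 in MEKi/L (adjusted p = 0.0060) and by 0.88 ± 0.20 in GSK3i/L (adjusted p = 0.0052) against S/L. In 2i/L it differed from S/L by -0.05 ± 0.20 (adjusted p = 0.84). 2i/L was lower than GSK3i/L by -0.93 ± 0.20 (adjusted p = 0.0038) and lower than MEKi/L by -0.85 ± 0.20 (adjusted p = 0.012). The last call was lost without MEKi/L replicate 2 (0.070), 2i/L replicate 1 (0.058) or 2i/L replicate 2 (0.055).

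Crabp2, which delivers retinoic acid to the receptors in the nucleus (ENSMUSG00000004885, chr3:87948666-87953376, plus strand), had the widest range of the carriers, and it lay above S/L in MEKi/L and below it in GSK3i/L. S/L held 13.5, 7.08 and 10.9 RPM. MEKi/L held 25.1, 28.9 and 30.6 RPM, and GSK3i/L 2.60, 3.22 and 5.29 RPM. With both inhibitors it was 1.07, 0.395 and 0.860 RPM (14, 5 and 13 reads). No 2 of the 8-day groups overlapped. The mean fell from 28.2 ± 2.83 RPM (SD, n = 3) in MEKi/L to 0.774 ± 0.344 in 2i/L, a difference of -5.30 ± 0.38 on the log2 scale (adjusted p = 1.8e-06) between media that differ in CHIR99021 alone and within columns of like processing. Crabp2 rose by 1.47 ± 0.38 in MEKi/L against S/L (adjusted p = 0.0074), fell by 1.52 in GSK3i/L (SE 0.38, adjusted p = 0.0089) and fell by 3.83 in 2i/L (SE 0.38, adjusted p = 2.3e-06). 2i/L lay below GSK3i/L by -2.31 ± 0.38 (adjusted p = 0.00060). At 24 days of GSK3i/L it was 3.87 and 5.99 RPM, against 8 days a difference of 0.45 ± 0.42 that was not called (adjusted p = 0.46). Every one of these calls held in all alternatives run.

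Dhrs3, which returns retinal to retinol and is itself a known retinoic acid target (ENSMUSG00000066026, chr4:144892827-144928209, plus strand), was near 0 reads wherever GSK3 alone was inhibited. The GSK3i/L libraries held 0, 0 and 2 reads at 8 days and 3 and 0 reads at 24 days. S/L held 1.52, 1.50 and 1.19 RPM, MEKi/L 4.38, 3.81 and 4.55 RPM, and 2i/L 1.75, 1.74 and 1.85 RPM. The order MEKi/L, 2i/L, S/L, GSK3i/L had no overlap in RPM between any neighbours at 8 days. However, 2i/L against S/L was not called (0.36 ± 0.52, adjusted p = 0.56). That narrow gap also crosses columns of unlike processing, so the order of these 2 media is not established. The GSK3i/L level was called lower than S/L (adjusted p = 0.00033), MEKi/L (adjusted p = 1.4e-05) and 2i/L (adjusted p = 0.00015). With 2 reads in the group no fold is given. MEKi/L exceeded S/L by 1.61 ± 0.52 (adjusted p = 0.024), a call that ended without S/L replicate 1 (0.053), S/L replicate 3 (0.071), MEKi/L replicate 1 (0.067) or MEKi/L replicate 3 (0.062), and under quantile normalization (0.054). 2i/L against MEKi/L gave -1.25 ± 0.52 (adjusted p = 0.12), and it was called when 0.5 RPM was added to each value (0.0088) or when only these 2 groups were fitted (0.010).

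Aldh1a2, which makes most retinoic acid of the early embryo (ENSMUSG00000013584, chr9:71215789-71296243, plus strand), was highest at 8 days with the GSK3 inhibitor, alone or combined. It was 2.60, 3.15 and 4.12 RPM in GSK3i/L and 2.51, 2.77 and 2.05 RPM in 2i/L, groups that overlapped and differed by -0.41 ± 0.53 (adjusted p = 0.57). S/L held 0.241, 1.13 and 1.47 RPM and MEKi/L 1.33, 0.720 and 0.948 RPM, which overlapped too. Against S/L it rose by 2.13 ± 0.53 in GSK3i/L (adjusted p = 0.0092; 0.055 when only these 2 groups were fitted) and by 1.72 ± 0.53 in 2i/L (adjusted p = 0.012). 2i/L against MEKi/L gave 1.32 ± 0.53 (adjusted p = 0.11; 0.031 with only these 2 groups fitted). MEKi/L was lower than GSK3i/L by -1.74 ± 0.53 (adjusted p = 0.036), which was lost without MEKi/L replicate 2 (0.12) or 3 (0.090) or GSK3i/L replicate 2 (0.084) or 3 (0.087). At 24 days it was 1.37 and 1.41 RPM, below every 8-day GSK3i/L library, at an adjusted p of 0.15. Beside it, the mesenchyme markers summed to 241, 164 and 101 RPM in replicates 1, 2 and 3 of GSK3i/L at 8 days and to 10.7 to 12.5 RPM in 2i/L, and their part in the Aldh1a2 result was not tested.

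Aldh1a3, the other synthesis enzyme on the list (ENSMUSG00000015134, chr7:66390892-66427517, minus strand), had its highest level with both inhibitors. 2i/L held 5.49, 5.69 and 7.47 RPM, a mean of 6.22 ± 1.09 (SD, n = 3). MEKi/L followed at 1.71, 2.01 and 1.04 RPM, and the 24-day libraries at 0.987 and 0.969 RPM. GSK3i/L at 8 days had 0.534 and 0.827 RPM and 0 reads in replicate 3, and S/L had 0 reads in replicate 1 and 0.215 and 0.232 RPM in the others. It rose against S/L by 5.26 ± 0.68 in 2i/L (adjusted p = 2.4e-05) and by 3.25 ± 0.68 in MEKi/L (adjusted p = 0.0021), both from a group of 6 reads in all. 2i/L exceeded GSK3i/L by 4.20 ± 0.68 (adjusted p = 0.00057). Every 2i/L library lay above every MEKi/L library, and that difference of 2.01 ± 0.68 missed the threshold (adjusted p = 0.068); it was 0.0030 with 0.5 RPM added to each value and 0.0033 with only these 2 groups fitted. MEKi/L against GSK3i/L passed at 2.20 ± 0.68 (adjusted p = 0.038). This call was lost without MEKi/L replicate 1 (0.090), 2 (0.11) or 3 (0.052) or GSK3i/L replicate 3 (0.10), under both rescalings (0.052 and 0.053), with no filter (0.051), without replicate 1 of both MEKi/L and GSK3i/L (0.067) and with only these 2 groups fitted (0.14). GSK3i/L against S/L was not called (adjusted p = 0.25), but was without GSK3i/L replicate 3 (0.0046).

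**Figure D3:**
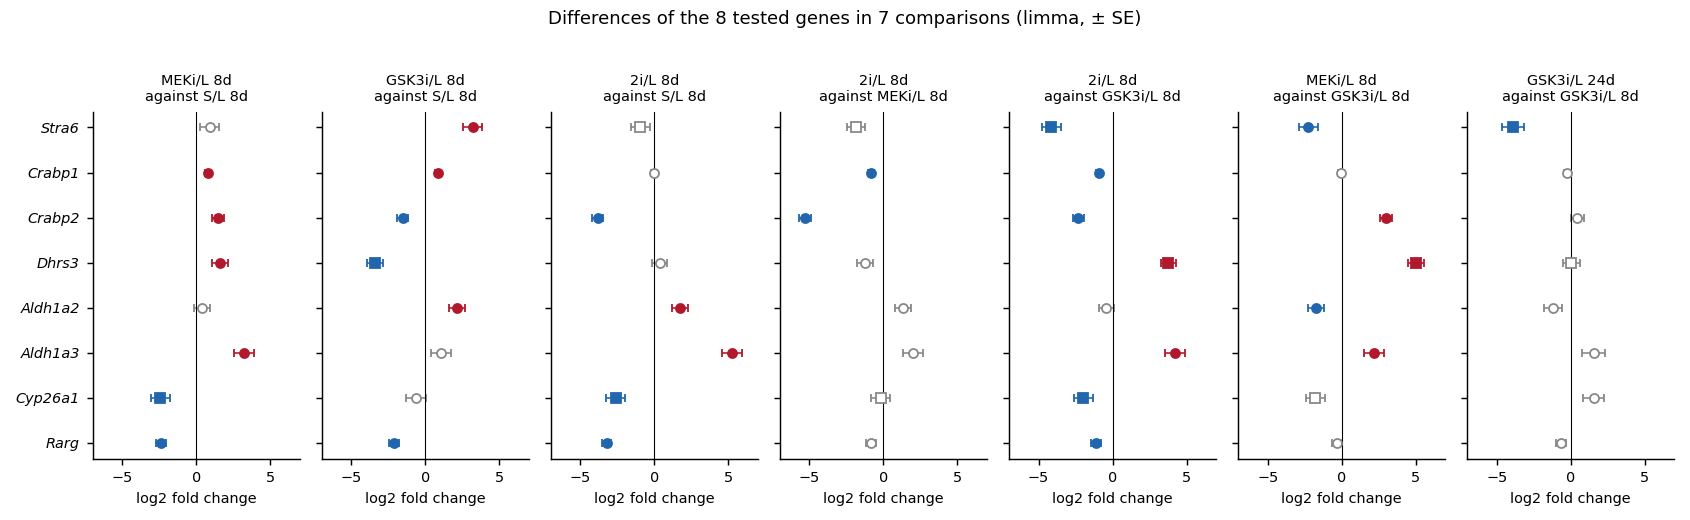
Log2 fold change (x axes) ± SE of the 8 tested genes in the 7 comparisons, 1 panel each; positive values are higher in the group named first. Filled symbols were called in limma (red higher, blue lower), open ones were not, and squares mark genes with 3 reads or fewer over all libraries of a group, whose fold depends on the value given to 0 reads. Rarg lies to the left in all 3 comparisons with S/L and Crabp2 reaches -5.30 in 2i/L against MEKi/L.

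Cyp26a1, the main enzyme that clears retinoic acid and a sensitive sign of its presence (ENSMUSG00000024987, chr19:37697808-37701528, plus strand), was close to the detection limit in every medium. S/L held 7, 4 and 4 reads (0.659, 0.306 and 0.331 RPM), GSK3i/L 7, 0 and 3 reads, MEKi/L 1 read in each library and 2i/L 0 reads in each. The highest RPM was in the 24-day GSK3i/L libraries, at 0.836 and 0.705 RPM (11 and 8 reads). Their depths were 13165315 and 11355346 reads. S/L replicate 1 had its 7 reads at an approximate depth of 8124283, in a matched column. A ranking of it against the 24-day libraries therefore depends on the processing. The difference between 24 and 8 days of GSK3i/L was not called (1.54 ± 0.72, adjusted p = 0.13). Against S/L it was lower in MEKi/L (adjusted p = 0.0090) and in 2i/L (adjusted p = 0.0031), the latter by at least 1.9-fold with 2i/L at the floor. 2i/L was also lower than GSK3i/L (adjusted p = 0.034) although the groups overlap at 0 reads. That call was lost without GSK3i/L replicate 1 (0.095) or 3 (0.14) or any 1 of the 2i/L libraries (0.074 to 0.090), under quantile normalization (0.074), with 0.5 RPM added (0.075) and with only these 2 groups fitted (0.11). MEKi/L against GSK3i/L missed the threshold (adjusted p = 0.070), and passed it without GSK3i/L replicate 2 (0.0046), which holds 0 reads, with each library centred on its median (0.048), with no filter (0.048) and with simpler variances (0.042).

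Rarb, the receptor whose gene retinoic acid induces (ENSMUSG00000017491, chr14:16430842-16575472, minus strand), was detected by 4 reads in all 14 libraries. They fell as 2 in S/L replicate 2, 1 in GSK3i/L replicate 1 at 8 days and 1 in 2i/L replicate 2. A count of 0 allows up to 3 reads, which corresponded to between 0.190 and 0.461 RPM depending on the library, so no difference between media was detectable at this depth.

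Rarg, the receptor that is abundant in embryonic stem cells (ENSMUSG00000001288, chr15:102234938-102257517, minus strand), was lower in every serum-free library than in every S/L library. S/L held 134, 150 and 175 RPM. The highest serum-free library was GSK3i/L replicate 1 at 56.9 RPM, and the other GSK3i/L libraries were 26.1 and 30.5 RPM. MEKi/L held 41.2, 19.3 and 30.2 RPM, 2i/L 22.8, 16.3 and 11.4 RPM, and the 24-day libraries 20.5 and 24.5 RPM. The mean dropped from 153 ± 20.6 RPM (SD, n = 3) to 30.3 ± 11.0, 37.8 ± 16.7 and 16.8 ± 5.73 RPM in MEKi/L, GSK3i/L and 2i/L. The log2 differences were -2.40 (adjusted p = 6.7e-05), -2.09 (adjusted p = 0.00036) and -3.23 (adjusted p = 2.6e-06), each with an SE of 0.32, and these calls held in all alternatives run. MEKi/L and GSK3i/L overlapped (adjusted p = 0.60), as did MEKi/L and 2i/L (adjusted p = 0.10). 2i/L lay below GSK3i/L by -1.14 ± 0.32 (adjusted p = 0.019), and the call was lost without GSK3i/L replicate 1 (0.051), 2i/L replicate 2 (0.054) or 2i/L replicate 3 (0.091).

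The other genes of the pathway were read from a list of 37, of which 25 passed the filter, Rxrg only through the S/L libraries. The counts called higher and lower were 9 and 4 in MEKi/L, 5 and 3 in GSK3i/L and 13 and 5 in 2i/L against S/L. Over all genes tested the shares were 26.1% and 14.7%, 16.8% and 14.4%, and 39.1% and 24.4%. The list's counts were 0 and 1 in 2i/L against MEKi/L (2 and 5 at an unadjusted p under 0.05 in limma), beside 6.81% and 6.11% of all genes. In 2i/L against GSK3i/L they were 10 and 1 (19.8% and 8.02% of all genes), in MEKi/L against GSK3i/L 5 and 2 (12.2% and 5.65%), and at 24 against 8 days 0 and 3 (4.30% and 13.2%; 1 and 8 unadjusted). The list's median log2 fold change against S/L was 0.57, 0.03 and 0.57 in MEKi/L, GSK3i/L and 2i/L. The counts of 2i/L against GSK3i/L were 6 and 3 under quantile normalization and 5 and 3 with each library centred on its median. Those at 24 against 8 days were 1 and 0 and 1 and 2. No gene called as reported changed direction under either.

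Among the binding proteins, Rbp7 and Fabp5 fell in every serum-free medium at 8 days. Rbp7, a cellular retinol-binding protein, fell from 11.9 ± 2.97 RPM to means between 0.403 and 1.52. Fabp5, which can carry retinoic acid to another nuclear receptor, also fell in all 3, from 34.8 ± 6.34 RPM to 11.8 ± 4.48 in MEKi/L, 10.5 ± 5.16 in GSK3i/L and 17.2 ± 5.95 in 2i/L.

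The storage and oxidation genes did not share 1 pattern over the media. Adh4 and Rdh1, which did not pass the filter, were highest in S/L, at 0.601 and 0.533 RPM, with at most 0.155 RPM in any other group mean, and the 6 reads of Rdh16 were all in S/L; these 3 were not tested. Lrat, which esterifies retinol for storage, was 1.14 to 1.65 RPM in MEKi/L, where S/L held 2 reads in all and GSK3i/L at 8 days 0, a difference from GSK3i/L of at least 4.3-fold. It was 0.358 ± 0.154 RPM in 2i/L, lower than MEKi/L (adjusted p = 0.020) and the 1 gene of the list called between these media. Under quantile normalization Adh1 was called there and Lrat was not, and without MEKi/L replicate 1 and GSK3i/L replicate 1 the count was 5 higher and 4 lower. Adh1, an alcohol dehydrogenase that oxidises retinol, had no read in any S/L library. It was higher by at least 5.4-fold in MEKi/L, 2.8-fold in GSK3i/L and 11.1-fold in 2i/L (adjusted p = 6.4e-06, 0.00011 and 3.5e-07). Rdh10, the main embryonic retinol dehydrogenase, was 6.18 ± 1.11 RPM in S/L and 9.34 ± 1.04 in MEKi/L (adjusted p = 0.027), a call lost under both rescalings and without replicate 1 of MEKi/L and GSK3i/L. Rdh13 rose from 21.1 ± 0.814 RPM to 39.3 ± 4.37 in MEKi/L and 39.2 ± 1.95 in 2i/L. The remaining synthesis and degradation genes, Aldh1a1, Aldh8a1, Cyp26b1 and Cyp26c1, did not pass the filter and were not tested. Of these, Cyp26b1 was highest in GSK3i/L at 8 days, at 0.760 ± 0.271 RPM (27 reads in all). It had 3 reads in S/L, 15 in MEKi/L, 7 in 2i/L and 2 at 24 days.

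**Figure D4:**
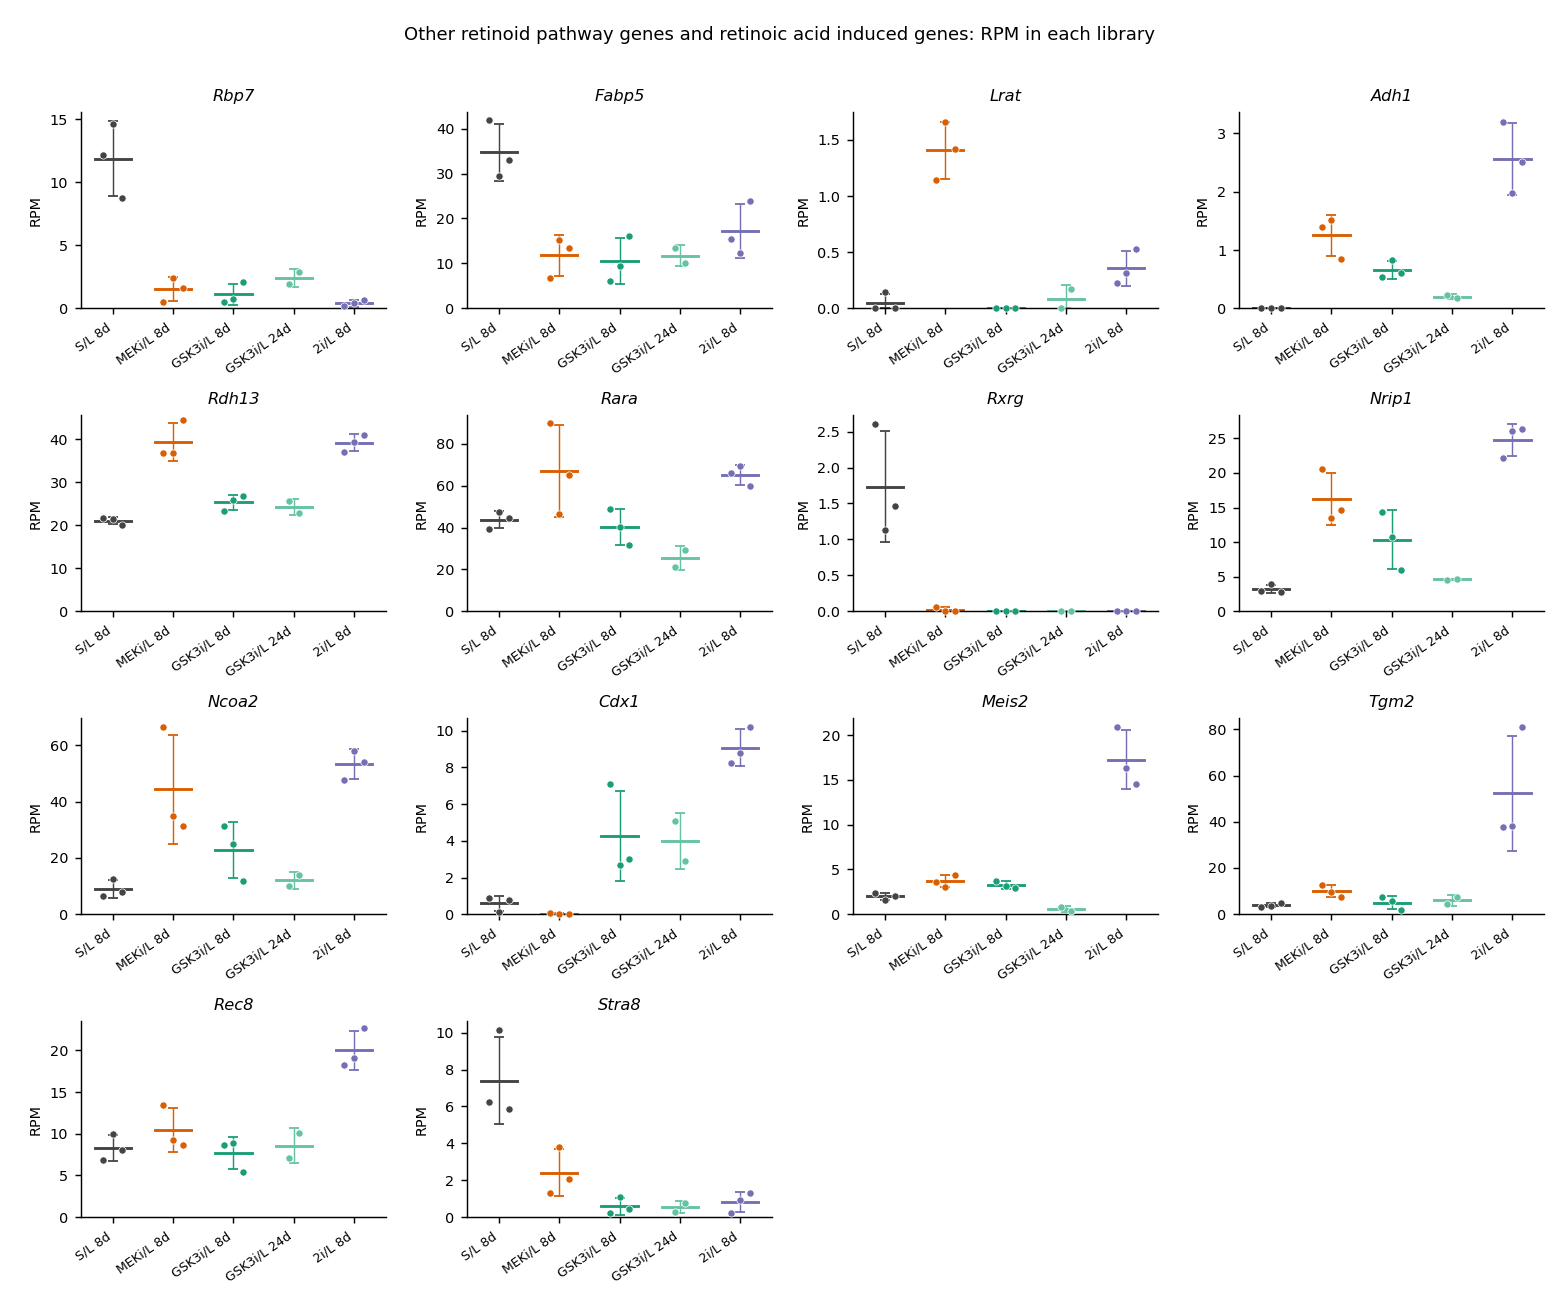
RPM (y axes, linear from 0) in each library of 9 further retinoid pathway genes, followed by 5 retinoic acid induced genes; the 14 were picked from the lists with their values known. Points are libraries, lines group means and bars SD stopped at 0. Rbp7 and Fabp5 are highest in S/L, Rxrg has reads almost only in S/L, and Cdx1, Meis2 and Tgm2 stand highest in 2i/L.

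Of the RXR partner receptors, Rxrg was 1.13 to 2.60 RPM in S/L and passed the filter only through those libraries. It held 1 read in MEKi/L and 0 reads in each of the other 8 libraries. It was at least 5.3-fold lower in GSK3i/L and 7.8-fold lower in 2i/L. The other RXR genes were present in every group, Rxrb at means from 48.9 to 59.5 RPM and Rxra at means from 7.43 to 23.9 RPM. Rara, a RAR, was 67.2 ± 22.0 RPM in MEKi/L and 65.0 ± 4.90 in 2i/L, against 43.7 ± 4.07 in S/L and 40.3 ± 8.65 in GSK3i/L. It was called higher in 2i/L than in S/L (0.57 ± 0.23, adjusted p = 0.041), which was lost under both rescalings. The co-regulators, which the receptors recruit to repress or activate genes, were all 6 called higher in 2i/L than in S/L, where 39.1% of all genes tested were, with a median of 1.56 against 0.28 over all genes tested. Nrip1, a corepressor that receptors bind when ligand is present, rose from 3.20 ± 0.608 RPM to 24.8 ± 2.30 (2.97 ± 0.28 on the log2 scale, adjusted p = 1.8e-06). Ncoa2, a coactivator, rose from 8.86 ± 3.15 to 53.3 ± 5.32 RPM (2.64 ± 0.36, adjusted p = 3.6e-05). Both also rose in MEKi/L and in GSK3i/L, and Nrip1 was lower at 24 than at 8 days of GSK3i/L (adjusted p = 0.036; lost under quantile normalization and without MEKi/L replicate 1 and GSK3i/L replicate 1 together).

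Of 16 genes known to be induced by retinoic acid in stem cells or embryos, 11 passed the filter. Nr2f1 passed only through GSK3i/L at 8 days, where its mean of 1.25 RPM was the highest. A call of Nr2f1 against that group or in it is therefore not independent of the filter. The counts higher and lower against S/L were 2 and 3 in MEKi/L (26.1% and 14.7% of all genes tested), 3 and 1 in GSK3i/L (16.8% and 14.4%) and 5 and 1 in 2i/L (39.1% and 24.4%). In 2i/L against MEKi/L they were 5 and 0 (6.81% and 6.11%; 6 and 1 at an unadjusted p under 0.05 in limma). Against GSK3i/L they were 3 and 1 in 2i/L (19.8% and 8.02%) and 1 and 2 in MEKi/L (12.2% and 5.65%), and at 24 against 8 days 0 and 3 (4.30% and 13.2%; 0 and 5 unadjusted). In 2i/L against S/L the 5 were Hoxb4, Cdx1, Meis2, Rec8 and Tgm2. Tgm2, a transglutaminase, was 37.7, 38.3 and 80.9 RPM in 2i/L and 3.06 to 4.90 RPM in S/L (3.69 ± 0.46, adjusted p = 1.6e-05). Meis2, a homeobox partner of Hox proteins, was 14.5 to 20.9 RPM in 2i/L and 1.59 to 2.36 RPM in S/L (3.11 ± 0.32, adjusted p = 3.0e-06). Cdx1, also a direct target of Wnt signalling, which GSK3 inhibition turns on, was 9.06 ± 1.01 RPM in 2i/L, 4.27 ± 2.44 in GSK3i/L and 0.605 ± 0.403 in S/L, with 1 read in MEKi/L. Stra8, named for its stimulation by retinoic acid, went the other way: 7.41 ± 2.37 RPM in S/L, 0.833 ± 0.556 in 2i/L and 0.582 ± 0.455 in GSK3i/L, lower by -3.44 ± 0.71 (adjusted p = 0.00088) and -3.95 ± 0.71 (adjusted p = 0.0011). The 2 genes called higher in MEKi/L against S/L, Meis2 and Tgm2, both lost the call under quantile normalization and without MEKi/L replicate 1 and GSK3i/L replicate 1.

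For the 4 members that reached a group mean of 5 RPM, the genes with the most similar log2 values over the 14 libraries were looked up among 10423 others. These r values describe 14 libraries that fall into 5 groups and differ in depth and processing, and they carry no test. Rarg was closest to Fgf1 (r = 0.97), Tcf15 (r = 0.96) and Pdlim7 (r = 0.96). Aldh1a3 was closest to Sfxn2 (r = 0.97), BC026585 (r = 0.95) and Idh2 (r = 0.95). Crabp2 was closest to Ctnnal1 (r = 0.95), Cd40 (r = 0.94) and D1Ertd622e (r = 0.89). Crabp1 was less closely followed, by Smarcd3 (r = 0.81), Gna15 (r = 0.79) and Pgam2 (r = 0.78).

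Other marker lists give the cell types in these cultures. Endoderm markers summed to 4.34 to 21.0 RPM at 8 days and to 13.2 and 49.6 RPM at 24 days. Primitive streak and mesoderm markers were 17.5 to 26.8 RPM in GSK3i/L at 8 days, 14.2 and 18.5 RPM at 24 days, 12.7 to 13.1 in 2i/L and 3.85 to 8.57 in S/L and MEKi/L. Neural markers ranged from 28.2 to 232 RPM, trophoblast markers from 22.3 to 102 RPM and germ cell markers from 37.1 to 229 RPM. The streak and mesoderm ranges of 8 and 24 days of GSK3i/L overlapped, while Stra6 was at 1 read in all at 24 days, and the part of this sum in the Stra6 and Aldh1a2 results was not tested.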

How the data were processed

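RNA of 14 libraries in 5 groups was analysed; the 24 bisulfite samples were not used. The authors deposited log2 RPM for 25965 genes, and all value columns (14) were assigned to libraries by name. Per the submitters' processing notes, Trim Galore 0.6.5, HISAT2 and GRCm38 were used; the file name points to SeqMonk. For counting options, strand and annotation, the sources used here give nothing. In 8 libraries at least 99.961% of values were whole multiples of 1 read (within 0.02), with 0 reads at 0.9 of a read. The 6 S/L and 8-day GSK3i/L libraries had been matched to 1 distribution (sorted values within 0.083 above 2 RPM). There, low read numbers were taken from a value's position among the distinct values of the column, which equalled reads up to 442 in the other libraries. 2i/L against MEKi/L and GSK3i/L against S/L lie within like columns, and the other 5 comparisons cross them, which can shift the balance of higher and lower genes.

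limma 3.58.1 (R 4.3.3; trend and robust variances) was fitted once to the 14 libraries with group as the only term, after a filter of 0.5 RPM in 3 or more libraries; the code was tested on simulated data. A log2 fold change is the difference of group means of log2 values, with its SE, and RPM are mean ± SD with 0 reads as 0. A group with 0 reads was set to 3 reads per library for a bound, and floors cover counting error only. The genes named are the 9 members, listed pathway and induced genes, and, for members reaching 5 RPM, the 3 tested genes of highest correlation (without predicted genes, Rik clones and pseudogenes). Some listed genes are counted but not reported here. Members and lists were chosen with earlier results of these data known. The listed symbols Bco1, Foxf1 and Map2 were matched through older names. Replicate numbers were checked for pairing by correlating deviations from group means. In MEKi/L against GSK3i/L all 3 correlations passed 0.1 (0.67, 0.12 and 0.40), and in no other comparison did all pass. Deviations within a group depend on each other, so this does not establish that those samples were paired. Alternatives were other scalings, filters and pseudocounts, a replicate block, simpler variances, fits of 2 groups and leaving out libraries.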

Additional observations from a re-analysis of the deposited data

How the results depend on the processing

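Of 32 called differences of members, 429 alternative values kept direction and call, 38 kept direction and lost the call, and 0 reversed. For the 24 not called, 317 stayed so, 14 became called and 12 changed sign. The replicate block left the count of members called within 1.5 times in every comparison. It moved the genes called at 24 against 8 days from 2616 to 1194 and the Dhrs3 difference there, 0.030 as reported, to -0.033. It also brought Stra6 in 2i/L against MEKi/L to an adjusted p of 0.045, and changed no other call of a member. Fitting 2 groups only gave 5 members in 2i/L against MEKi/L and 3 in MEKi/L against GSK3i/L, and 149 genes at 24 against 8 days, 2678 in GSK3i/L against S/L and 1591 in MEKi/L against GSK3i/L. Adding 0.5 RPM gave 4 members in 2i/L against MEKi/L. A 1 RPM filter gave 0 at 24 against 8 days, since Stra6 was then not tested. Leaving out 1 library gave 1 to 3 members in 2i/L against MEKi/L and 2 to 4 in MEKi/L against GSK3i/L. For all genes it gave 372 to 5885 at 24 against 8 days (5885 without GSK3i/L replicate 3), 2800 to 6748 in GSK3i/L against S/L, 966 to 3962 in 2i/L against MEKi/L and 2578 to 5744 in 2i/L against GSK3i/L. Without replicate 1 of both MEKi/L and GSK3i/L, 5505 and 6738 genes were called in 2i/L against MEKi/L and against GSK3i/L, 9 listed pathway genes against MEKi/L (1 as reported), and Dhrs3 at 24 days was -0.30. The cause was not tested. Differences that were not called and changed sign when 1 library was left out ranged from -0.73 to 0.79 (Dhrs3, 24 against 8 days), -0.41 to 0.89 (Aldh1a2, MEKi/L against S/L), -1.04 to 0.20 (Cyp26a1, GSK3i/L against S/L), -0.19 to 0.051 (Crabp1, 2i/L against S/L), -0.24 to 0.044 (Crabp1, MEKi/L against GSK3i/L) and -0.56 to 0.034 (Rarg, MEKi/L against GSK3i/L).

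Scaling moved the balance of all genes and no called member's direction. The median difference, removed by centring, was 0.17, 0.28, 0.18 and -0.19 in MEKi/L and 2i/L against S/L, 2i/L against GSK3i/L and 24 against 8 days. The share of called genes that were higher went from 64.0% to 50.6% (MEKi/L against S/L), 61.6% to 46.3% (2i/L against S/L), 52.7% to 38.3% (2i/L against MEKi/L), 71.2% to 37.9% (2i/L against GSK3i/L) and 68.3% to 50.1% (MEKi/L against GSK3i/L) by centring. By quantile normalization it went to 54.7% and 52.9% in the last 2 and from 24.6% to 38.2% at 24 against 8 days. Depth limits Rarb, Cyp26a1, Stra6 and Dhrs3, which held 3 reads or fewer in at least 1 group.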

Other observations

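Of the 31 genes with a DR5 in a RefSeq promoter window, 12 were found by symbol in the expression table, and 8 of those stayed under 0.5 RPM in every library. Only Blvrb, a biliverdin reductase, was well expressed, with means of 97.1 RPM at 24 days of GSK3i/L and between 46.3 (S/L) and 60.0 RPM (GSK3i/L) in the 8-day groups. Hbb-y, Ppbp and Prokr2 were among those at or near 0 reads, as Rarb was.

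The germ cell markers, which like Stra8 include genes of meiosis, summed to 167 to 229 RPM in S/L and 37.1 to 67.3 in 2i/L. The sums were 101 to 141 RPM in MEKi/L, and with GSK3i/L 54.2 to 112 at 8 days and 112 to 133 at 24 days. Stra8 was highest in S/L as this sum was, but the 2 did not match elsewhere. Mean Stra8 was lowest at 24 days of GSK3i/L, at 0.548 RPM. Within the sum, Sycp3 alone had a mean of 97.3 RPM in S/L. In 2i/L against S/L 5 of the markers were called lower and 1 higher, Dazl, with means of 17.3 and 7.62 RPM. Rec8, a meiotic cohesin, was highest in 2i/L (20.0 ± 2.36 RPM, n = 3), where the sum was lowest.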
